A study of Mus musculus with 10 samples.

Results

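Zfp genes are the mouse genes named for zinc finger proteins, and the 225 described here are those whose symbol is Zfp followed by digits alone and whose mean level reached 2 FPKM (a fragment count scaled by transcript length and library size) over 10 RNA sequencing libraries. They were drawn from 347 Zfp genes among the 18055 genes listed in any library. The libraries came from primary hepatocytes, the parenchymal cells of the liver, cultured after isolation from wild-type C57BL/6 mice. There were 5 groups with 2 libraries in each. The Vehicle group received no free fatty acid (FFA) and no drug, the PA group 200 μM palmitate for 24 h, and the LA group 12 μM linoleate for 24 h. The PA+NTP and LA+NTP groups received 0.4 NU/mL Neurotropin (NTP), a non-protein extract of inflamed rabbit skin used against chronic pain, for 1 h before the same FFA. No group received NTP without an FFA. The genes were chosen by their mean FPKM over all libraries, so that levels near 2 are not a finding.

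Most Zfp proteins carry C2H2 zinc fingers, short folds in which a pair of cysteines and a pair of histidines hold a zinc ion and which together read a stretch of DNA. Many of them open with a Krüppel-associated box (KRAB), which recruits the co-repressor Trim28 and, through it, the histone methyltransferase Setdb1 and HP1 proteins, and these KRAB zinc finger proteins are best known for silencing transposable elements. They lie in clusters that arose by gene duplication, so that neighbors resemble each other in sequence. Other genes with a Zfp name encode transcription factors without a KRAB, ubiquitin ligases or RNA-binding proteins, and not all of these carry C2H2 fingers.

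The groups of Zfp genes described below differed in the base composition of the fingers themselves, and the first finger of 6 members is shown for that reason. They belong to the 3 members most raised and the 3 most lowered in the mean of the 2 FFA comparisons, and each stretch is coding DNA of GENCODE M21 on GRCm38, the build of the files (mm10). It runs 5′ to 3′ along the coding strand, which is the plus strand for all 6. Capitals mark the codons of the zinc-binding cysteines (TGT or TGC) and histidines (CAT or CAC), which can end in T or C without a change of the protein.
Zfp992: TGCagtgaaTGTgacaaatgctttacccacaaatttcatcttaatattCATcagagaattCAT
Zfp943: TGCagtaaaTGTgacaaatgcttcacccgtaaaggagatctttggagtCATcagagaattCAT
Zfp971: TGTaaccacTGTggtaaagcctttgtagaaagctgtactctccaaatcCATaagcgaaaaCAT
Zfp414: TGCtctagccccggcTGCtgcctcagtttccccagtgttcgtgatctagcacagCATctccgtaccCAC
Zfp358: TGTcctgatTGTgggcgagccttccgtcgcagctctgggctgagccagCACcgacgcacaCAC
Zfp428: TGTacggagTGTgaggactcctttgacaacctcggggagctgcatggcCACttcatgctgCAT

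These fingers lie at chr4:146466547-146466609 in exon 4 of 4 of Zfp992, chr17:21992478-21992540 in exon 4 of 4 of Zfp943, chr2:178033006-178033068 in exon 4 of 4 of Zfp971, chr17:33630381-33630449 in exon 3 of 6 of Zfp414, chr8:3495885-3495947 in exon 2 of 2 of Zfp358, and chr7:24515450-24515512 in exon 3 of 3 of Zfp428. The GC content of the stretch was 31.7% in Zfp992 and 39.7% in both Zfp943 and Zfp971. It was 59.4% in Zfp414, 65.1% in Zfp358 and 55.6% in Zfp428. Over the 2272 fingers found in 217 of the 225 members, 35.8% of the 9088 cysteine and histidine codons ended in C. The share was 6.25% over the 100 fingers of the 10 most raised members (9 of which had fingers in a coding sequence) and 65.4% over the 78 fingers of the 10 most lowered members (8 with fingers), a description with no test.

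By a KRAB pattern in the coding sequence, the members fell into 119 with the pattern and 104 without it, and 2, Zfp935 and Zfp267, had no coding sequence to search. The pattern is a search of letters and misses some known KRAB proteins, such as Zfp445. Median transcript GC content was 41.1% in the members with the pattern and 50.6% in those without it, beside 50.1% over all tested genes. In the 3′ UTR the corresponding medians were 38.3% and 44.8%. Members with the pattern had a median of 12 fingers and a median level of 4.07 FPKM, against 7 fingers and 7.93 FPKM without it. Promoters of 185 members were in the RefSeq table (GRCm38.p6, 300 bases around the start), and their median GC content was 52.2% with the pattern and 60.7% without it. On chromosome 7 lay 49 members, on chromosome 17 another 33 and on chromosome 13 another 18.

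Total expected counts per library ranged from 13142588 to 60046937, and the members' median expected count was 566. Across all tested genes, Spearman's rho between transcript GC content and each gene's departure from its own average ran from 0.34 to 0.57 in the Vehicle and NTP libraries and from -0.57 to -0.47 in the PA and LA libraries, a description across genes that share a library. The 7 hepatocyte markers were all listed, with a summed level of 3279 to 3487 FPKM with Vehicle, 2298 to 2528 with PA, 2780 to 3118 with PA+NTP, 3308 to 3367 with LA and 3925 to 4174 with LA+NTP. Of these 7, 4 were called with PA and 0 with LA by edgeR. Over all tested genes 6.00% rose and 8.92% fell with PA, and 3.53% and 7.11% with LA. Among the markers of other cell types, the macrophage sum was 206 FPKM in both Vehicle libraries, 201 and 237 with PA, 265 and 295 with PA+NTP, 124 and 129 with LA and 180 and 194 with LA+NTP. The endothelial sum was 37.4 and 37.6 FPKM with Vehicle, 27.6 and 29.1 with PA, 29.8 and 34.1 with PA+NTP, 28.6 and 32 with LA and 38 and 40.2 with LA+NTP. The cholangiocyte sum was 11 to 13 FPKM with Vehicle, 7.68 to 8.1 with PA, 12.4 to 13 with PA+NTP, 9.67 to 9.98 with LA and 14.5 to 14.6 with LA+NTP. Of 6 stellate cell or fibroblast markers, 3 were called with PA and 1 with LA, while their sum stayed between 16.5 and 19.7 FPKM in the 10 libraries. Of 7 macrophage markers, 1 was called with PA and 1 with LA. Among 4 cholangiocyte markers and 5 T, B or NK cell markers, 1 each was called with PA and 0 with LA. None of 5 endothelial markers was called with either. The T, B and NK cell markers summed to at most 0.79 FPKM and S100a8, S100a9 and Ly6g were not listed. Fewer cells of a type and less RNA per cell cannot be told apart in these bulk libraries, and the part of the markers in the results below was not tested.

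**Figure D1:**
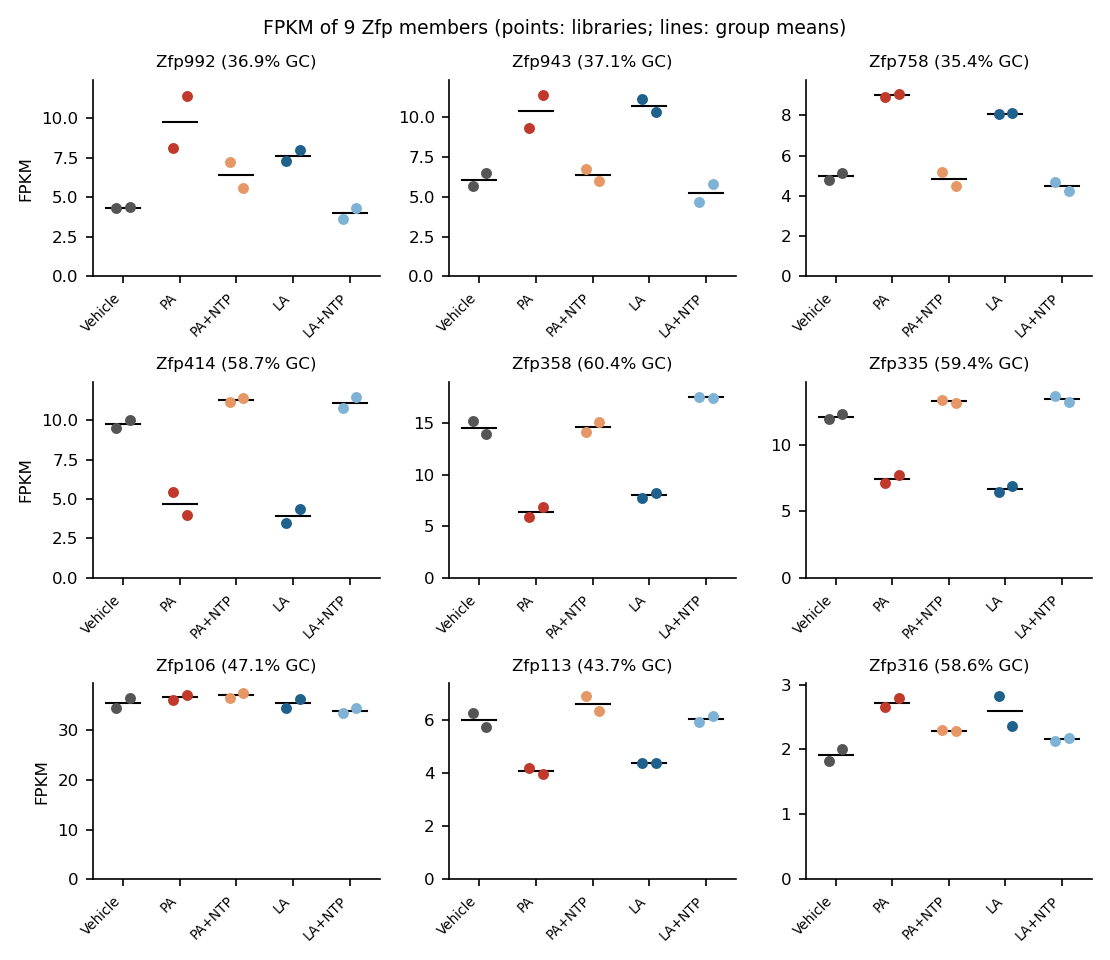
FPKM of 9 Zfp genes in the 10 libraries, by group, with each axis starting at 0, where points are libraries and lines are group means. Zfp992, Zfp943 and Zfp758 were highest in the PA and LA libraries and Zfp414, Zfp358 and Zfp335 were lowest there, Zfp106 lay between 33.5 and 37.4 FPKM in all libraries, and Zfp113 and Zfp316 went against the direction of genes with their GC content.

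With PA, 36 of the 225 members rose and 23 fell relative to Vehicle, where a call needed a change of 1.5-fold or more and an adjusted p (Benjamini-Hochberg) below 0.05 in the quasi-likelihood test of edgeR, fitted to 14097 genes in all 10 libraries. Those are 16% and 10.2% of the members, beside 6.00% of all tested genes raised and 8.92% lowered. Limma on log2(FPKM + 1) gave 14 raised, 12 of them with the KRAB pattern, and 16 lowered. With LA, 20 members rose and 20 fell, 8.89% in each direction, beside 3.53% and 7.11% of all tested genes. This split stayed near even in some other settings, with 20 raised and 19 lowered by DESeq2 and 19 and 20 with no filter on low counts. It was less even in others, with 8 raised and 13 lowered by limma on log2(FPKM + 1), 14 and 22 by limma on log2(FPKM + 0.1), and 30 and 16 without LA replicate 2. The members that rose were mostly those with the KRAB pattern, 32 of 119 with PA and 18 of 119 with LA, and the members that fell were those without it, 23 of 104 with PA and 20 of 104 with LA. No member with the pattern was called as lowered by either FFA in edgeR, DESeq2 or limma, and 6 with PA and 11 with LA were lower at an unadjusted p under 0.05 in edgeR. Without the pattern, 3 members rose with PA and 1 with LA, and Zfp935, which has no coding sequence to search, rose with both. Median log2 fold changes were 0.37 with PA and 0.36 with LA in the members with the pattern and -0.06 with either FFA in the others, beside -0.01 over all tested genes. PA and LA were compared with the same 2 Vehicle libraries.

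Zfp992, on chromosome 4 (GRCm38 chr4:146449030-146469440), had the largest mean increase of the members called with an FFA. It measured 4.31 and 4.38 FPKM with Vehicle, 8.08 and 11.4 with PA, 7.25 and 5.59 with PA+NTP, 7.31 and 7.95 with LA and 3.62 and 4.32 with LA+NTP. All 4 libraries with an FFA alone lay above the other 6. The log2 fold change was 1.22 ± 0.15 (SE, adjusted p = 2.21e-05, edgeR) with PA and 0.85 ± 0.15 (SE, adjusted p = 4.85e-04, edgeR) with LA. Of its 31-base stretches, 49.9% also occur in transcripts of other genes, so that the split of its reads is uncertain. Zfp943, on chromosome 17 (GRCm38 chr17:21962559-21994366), shares only 8.11% of them. It measured 5.65 and 6.46 FPKM with Vehicle, 9.32 and 11.4 with PA, 6.74 and 5.96 with PA+NTP, 11.1 and 10.3 with LA and 4.68 and 5.79 with LA+NTP. The PA and LA libraries again lay above all others. On a log2 scale it changed by 0.82 ± 0.12 (SE, adjusted p = 1.11e-04, edgeR) with PA and 0.87 ± 0.12 (SE, adjusted p = 7.82e-05, edgeR) with LA.

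Zfp758 and Zfp942 are KRAB zinc finger genes of the same chromosome 17. Zfp758 (GRCm38 chr17:22361430-22393909) measured 4.78 and 5.15 FPKM with Vehicle, 8.93 and 9.05 with PA, 5.20 and 4.51 with PA+NTP, 8.06 and 8.09 with LA and 4.69 and 4.26 with LA+NTP. The groups with an FFA alone did not overlap with the others. Its log2 fold change was 0.89 ± 0.10 (SE, adjusted p = 7.24e-06, edgeR) with PA and 0.74 ± 0.10 (SE, adjusted p = 3.79e-05, edgeR) with LA. Zfp942 (GRCm38 chr17:21926960-21962503) measured 7.66 and 9.45 FPKM with Vehicle, 15.8 and 14.1 with PA, 9.30 and 8.64 with PA+NTP, 13.8 and 13.6 with LA and 7.13 and 7.60 with LA+NTP. Here too the 4 libraries with an FFA alone were the highest. On the log2 scale the change was 0.82 ± 0.10 (SE, adjusted p = 1.41e-05, edgeR) with PA and 0.72 ± 0.10 (SE, adjusted p = 5.20e-05, edgeR) with LA, where the call was lost without Vehicle replicate 1 (log2 fold change 0.58). The remaining 6 of the 10 most raised members, Zfp971, Zfp820, Zfp456, Zfp935, Zfp120 and Zfp930, had mean log2 fold changes from 0.72 to 0.82 and transcript GC contents from 36.4% to 39.1%. Among these 6, Zfp971, Zfp456 and Zfp935 share from 68.1% to 72.6% of their 31-base stretches with other genes, while Zfp120 and Zfp930 lost their calls with both FFAs without Vehicle replicate 2 (0.52 to 0.57) and Zfp820 without Vehicle replicate 1 (0.58 with PA and 0.55 with LA).

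The members that fell were led by Zfp414 on chromosome 17 (GRCm38 chr17:33629092-33631716), with 2 fingers and no KRAB pattern. It measured 9.51 and 10.0 FPKM with Vehicle, 5.43 and 4.01 with PA, 11.2 and 11.4 with PA+NTP, 3.51 and 4.35 with LA and 10.8 and 11.5 with LA+NTP. All 4 libraries with an FFA alone lay below the other 6. The log2 fold change was -1.05 ± 0.16 (SE, adjusted p = 1.03e-04, edgeR) with PA and -1.26 ± 0.16 (SE, adjusted p = 2.84e-05, edgeR) with LA. It shares 27.9% of its 31-base stretches with other genes. Zfp358, on chromosome 8 (GRCm38 chr8:3493138-3497208), shares none of them. It measured 15.2 and 13.9 FPKM with Vehicle, 5.94 and 6.84 with PA, 14.1 and 15.1 with PA+NTP, 7.72 and 8.26 with LA and 17.6 and 17.5 with LA+NTP. Both FFA groups were the lowest and did not overlap with the rest. As a log2 fold change this was -1.13 ± 0.10 (SE, adjusted p = 1.12e-06, edgeR) with PA and -0.82 ± 0.09 (SE, adjusted p = 1.52e-05, edgeR) with LA. The remaining 8 of the 10 most lowered members, Zfp428, Zfp865, Zfp362, Zfp579, Zfp703, Zfp36, Zfp628 and Zfp668, had mean log2 fold changes from -0.94 to -0.76 and transcript GC contents from 51.4% to 66.3%. Of these, Zfp428 lost its call with LA when any Vehicle or LA library was left out (adjusted p from 0.0636 to 0.172), Zfp628 lost its call with PA without PA replicate 2 (-0.54) and Zfp668 without Vehicle replicate 1 (-0.55).

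With NTP added to PA, 24 members rose and 26 fell relative to PA alone, beside 8.74% of all tested genes raised and 5.11% lowered. As shares of the members these are 10.7% and 11.6%. Scaling by library size alone gave 31 raised and 22 lowered, and limma on log2(FPKM + 1) gave 18 and 11. With NTP added to LA, 29 rose and 42 fell, or 12.9% and 18.7% of the members, beside 11.7% and 7.57% of all tested genes, and limma on log2(FPKM + 1) gave 25 and 21. Of the members with the KRAB pattern, 23 fell and 2 rose with PA+NTP, and 36 fell and 1 rose with LA+NTP. Of those without it, 22 rose and 2 fell with PA+NTP, and 28 rose and 5 fell with LA+NTP. Median log2 fold changes were -0.27 and -0.44 with the pattern and 0.12 and 0.06 without it. Each NTP comparison uses the same PA or LA libraries as the comparison with Vehicle, so that chance values of those libraries enter both with opposite signs.

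For the members described above, the NTP values stand side by side with those of the FFAs. Zfp943 had a log2 fold change of -0.79 ± 0.12 (SE, adjusted p = 1.24e-04, edgeR) for NTP added to PA and -1.07 ± 0.12 (SE, adjusted p = 4.74e-06, edgeR) for NTP added to LA. In Zfp992 the values were -0.69 ± 0.14 (SE, adjusted p = 0.00132, edgeR) and -0.97 ± 0.14 (SE, adjusted p = 6.65e-05, edgeR), and the first call was lost without PA replicate 2 (-0.40) or PA+NTP replicate 2 (-0.55). Zfp414 had 1.23 ± 0.15 (SE, adjusted p = 2.19e-05, edgeR) under PA and 1.47 ± 0.15 (SE, adjusted p = 2.40e-06, edgeR) under LA on the same scale. Zfp358 had 1.12 ± 0.09 (SE, adjusted p = 1.18e-06, edgeR) and 1.09 ± 0.09 (SE, adjusted p = 4.31e-07, edgeR). In these 4 genes the PA+NTP and LA+NTP libraries lay on the Vehicle side of the FFA libraries.

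Compared with Vehicle, the groups with NTP and an FFA held few called differences, in these genes as in all tested genes. By edgeR 0 members were called in PA+NTP against Vehicle, beside 2.85% of all tested genes, and 0 in LA+NTP against Vehicle, beside 0.0922%. At an unadjusted p under 0.05 in edgeR, 32 members (14.2%) differed in the first comparison, beside 24.7% of all tested genes. In the second 35 (15.6%) did, beside 14.3%. DESeq2 and limma on FPKM also called 0 in both. The log2 fold changes of the members ran from -0.33 to 0.57 in PA+NTP and from -0.56 to 0.48 in LA+NTP. The difference between the NTP effects under LA and PA gave 0 called members by edgeR, beside 0% of all tested genes. At an unadjusted p under 0.05 in edgeR there were 22 (9.78%), beside 7.3% of all tested genes. DESeq2 and limma called 0.

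PA and LA differed directly in 1 member, Zfp991, beside 3.23% of all tested genes. It is a KRAB zinc finger gene on chromosome 4 (GRCm38 chr4:147132093-147180579) with 35.4% transcript GC. It measured 14.2 and 14.2 FPKM with Vehicle, 24.5 and 23.8 with PA, 16.8 and 18 with PA+NTP, 17 and 13.5 with LA and 10.7 and 11.6 with LA+NTP. The PA libraries were the highest of all, while the LA libraries overlapped with those of Vehicle. The log2 fold change of LA against PA was -0.64 ± 0.10 (SE, adjusted p = 7.17e-04, edgeR), and the call was lost without LA replicate 2 (-0.48). Since 88% of its 31-base stretches also occur in other genes, the split of its reads is uncertain.

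**Figure D2:**
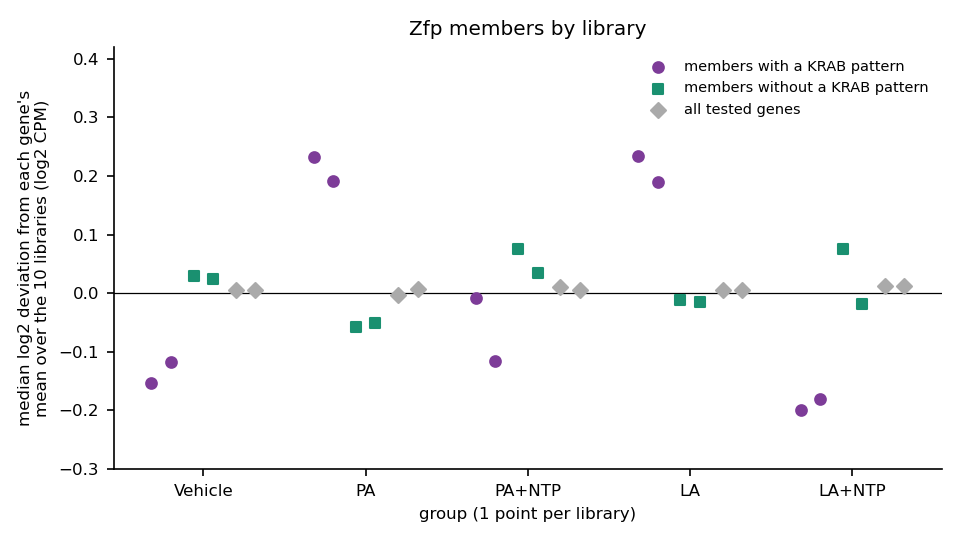
Median log2 deviation of the members from each gene's mean over the 10 libraries (log2 CPM), 1 point per library, for members with a KRAB pattern (circles), members without it (squares) and all tested genes (diamonds). The KRAB members lay at 0.19 to 0.23 in the 4 libraries with an FFA alone and at -0.20 to -0.01 in the other 6. With a smooth fit on GC content subtracted (not drawn), these libraries overlapped.

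Of the 119 members with the KRAB pattern, 96 had a positive log2 fold change with PA and 92 with LA. Their median was 0.37 with PA and 0.36 with LA. Other genes of like GC content, in bins of 2 percentage points, had 0.38 and 0.40. In each library, the median deviation of the 119 members with the KRAB pattern from their own means was -0.154 and -0.118 with Vehicle, 0.232 and 0.191 with PA, -0.009 and -0.116 with PA+NTP, 0.234 and 0.190 with LA, and -0.199 and -0.181 with LA+NTP, on the log2 scale. The FFA libraries and the others did not overlap. After a smooth fit on GC content over all genes was subtracted, these libraries overlapped. The medians were then 0.109 and 0.021 with PA, -0.027 and 0.029 with LA, and 0.092 and -0.007 with PA+NTP. They were -0.016 and -0.023 with Vehicle and -0.036 and -0.067 with LA+NTP. For the 104 members without the pattern, the medians as deposited ran from -0.057 to -0.012 in the PA and LA libraries. In the others they ran from -0.018 to 0.076, which overlapped. Summed over the members with the pattern, the level was 674.9 and 692.7 FPKM with Vehicle, 893.4 and 891.4 with PA, 774.8 and 704.4 with PA+NTP, 850.7 and 843.4 with LA, and 639.1 and 644.1 with LA+NTP. The sums of the members without it stayed between 1079.6 and 1196.4 FPKM in the 10 libraries.

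Within both kinds of member, the fold changes followed the GC content of the transcript. Across the 225 members, Spearman's rho between GC content and log2 fold change was -0.83 for PA and -0.84 for LA against Vehicle, and 0.83 and 0.89 for NTP added to PA and to LA. Over all 13978 tested genes with a GC value, the corresponding values were -0.52, -0.64, 0.58 and 0.68. The members share libraries, and no p was computed. Among the members with the pattern rho was -0.76 with PA and -0.69 with LA, and among those without it -0.80 and -0.88. The number of fingers gave 0.24 and 0.26 across the members with a coding sequence. The 58 members below 40% GC, a limit chosen after the values were seen, all had a positive log2 fold change with both FFAs. All 58 had a negative one with NTP under both. Other genes went the same way. In bins of 2 percentage points from 34% to 40% GC, their medians were 0.44 to 0.53 with PA and 0.47 to 0.55 with LA. With NTP these medians were negative under both. In the 68 members at or above 50% GC, 54 had a negative log2 fold change with PA and 61 with LA. Medians of the other genes in those bins were likewise negative with both FFAs.

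**Figure D3:**
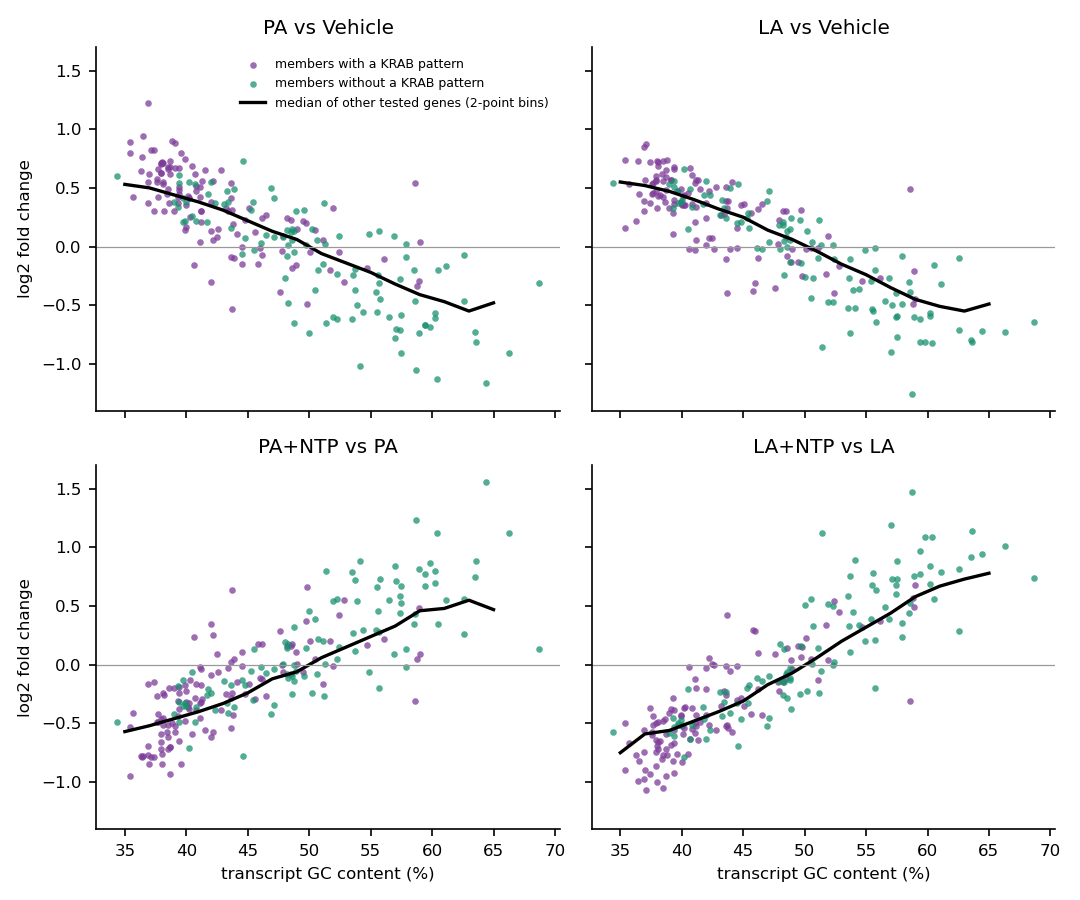
Log2 fold change of each member with a coding sequence against its transcript GC content (%), in 4 comparisons, with members colored by the KRAB pattern. The black line is the median of the other tested genes in bins 2 percentage points wide that hold at least 20 of them, and most members lie near it in each panel.

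Set beside other genes of like GC content, the members had medians close to theirs in some bins and further away in others. In bins of 2 percentage points, the 18 members from 36% to 38% GC had medians of 0.63 with PA and 0.53 with LA on the log2 scale, and the 133 other genes of that bin 0.50 and 0.52. From 38% to 40% GC, the 36 members had 0.54 with PA and 0.49 with LA against 0.44 and 0.47 in 398 other genes. From 48% to 50% GC, the 22 members had 0.09 with PA and 0.06 with LA against 0.06 and 0.06 in 1502 other genes. The gap was wider in other bins. From 44% to 46% GC, the 14 members had 0.09 with PA against 0.22 in 1291 other genes. From 52% to 54% GC, the 10 members had -0.27 with PA and -0.32 with LA against -0.14 and -0.15 in 1527 other genes, and 0.48 with PA+NTP against 0.15. From 56% to 58% GC, the 11 members had -0.58 with PA and -0.49 with LA against -0.32 and -0.35 in 1168 other genes. From 58% to 60% GC, the 11 members had -0.46 with PA and -0.49 with LA against -0.41 and -0.45 in 831 other genes. The median over all members of the difference from the other genes of the same bin was 0.02 for PA and -0.03 for LA against Vehicle, and 0.08 and 0.02 for NTP added to PA and to LA. For the members with the KRAB pattern alone it was 0.07, 0.00, 0.06 and -0.01, and for those without it -0.08, -0.06, 0.11 and 0.05. Of the 104 members without the pattern, 41 lay above the median of their bin with PA and 42 with LA, and of the 119 with it 75 and 60.

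The shares called were also set beside genes of like GC content. Weighted to the GC content of the members, 11.8% of the other genes rose and 7.06% fell with PA, where 16% and 10.2% of the members did. With LA the weighted shares were 9.57% and 5.76%, and those of the members 8.89% in each direction. For the members with the KRAB pattern, the weighted share raised was 16.7% with PA and 14.4% with LA, and that of the members 26.9% and 15.1%. Against other genes that also reached 2 FPKM, the weighted share was 18.9% with PA and 16.9% with LA, so that with LA the members stood below it. For those without it, the weighted share lowered was 10.6% with PA and 9.19% with LA, and that of the members 22.1% and 19.2%. These are descriptions, and whether the members differ from genes of like GC content was not tested.

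Once a smooth fit on GC content over all genes had been subtracted in every library, fewer members were called. The fit left part of the dependence in the members, with rho between transcript GC content and log2 fold change of -0.26 for PA, -0.20 for LA, 0.26 for PA+NTP and 0.33 for LA+NTP, beside -0.02, -0.03, 0.04 and 0.04 over all tested genes. With PA 2 rose and 7 fell, or 4% of the members beside 8.48% of all tested genes. With LA 1 rose and 3 fell, or 1.78% beside 3.23%. In PA+NTP against PA 9 rose and 2 fell, or 4.89% beside 6.04%, and in LA+NTP against LA 5 rose and 1 fell, or 2.67% beside 5.75%. The members with the KRAB pattern then had median log2 fold changes of 0.10 with PA and 0.01 with LA, and those without it -0.04 and -0.03. In all, 15 members (6.67%) were called in at least 1 of the 4 comparisons after the removal. The matching share of all tested genes was not computed, and in each single comparison the members' share lay below that of all tested genes.

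**Figure D4:**
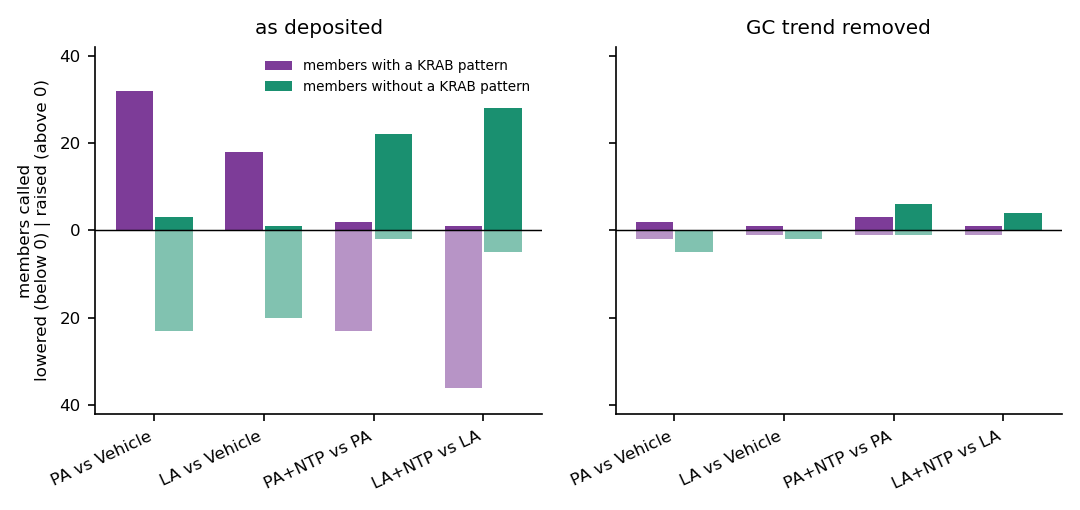
Number of members called in 4 comparisons, with raised members above 0 and lowered members below it (paler), for the 119 members with a KRAB pattern and the 104 without it. Left, expected counts as deposited, where 32 members with the pattern rose with PA, and right, after removal of the trend on GC content, where 2 did.

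Among the 15 was Zfp36, or tristetraprolin, which binds AU-rich mRNAs through CCCH fingers and speeds their decay. It measured 17.3 and 14.0 FPKM with Vehicle, 7.39 and 7.59 with PA, 14.5 and 14.3 with PA+NTP, 11.6 and 9.40 with LA and 21.8 and 18.5 with LA+NTP. The PA libraries were the lowest and did not overlap with any other group. Its log2 fold change with PA was -1.02 ± 0.13 (SE, adjusted p = 2.53e-05, edgeR) as deposited and -0.81 (adjusted p = 3.34e-04, edgeR) after the removal. With NTP it was 0.88 ± 0.13 (SE, adjusted p = 7.28e-05, edgeR) under PA and 0.89 ± 0.12 (SE, adjusted p = 2.31e-05, edgeR) under LA, and after the removal 0.66 (adjusted p = 0.0015, edgeR) and 0.62 (adjusted p = 0.00139, edgeR). With LA its change was -0.52 ± 0.12 (SE, adjusted p = 0.00365, edgeR) and was under the fold threshold. Zfp414, described above, was called in all 4 comparisons after the removal as well, with -0.64 (adjusted p = 0.00984, edgeR) with PA and -0.81 (adjusted p = 0.00415, edgeR) with LA.

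Zfp113 and Zfp316, both KRAB zinc finger genes on chromosome 5 and chosen here after their values were seen, went against the genes of their GC content. Zfp113 (GRCm38 chr5:138139702-138155744), with 43.7% GC, measured 6.24 and 5.73 FPKM with Vehicle, 4.20 and 3.96 with PA, 6.88 and 6.31 with PA+NTP, 4.38 and 4.37 with LA and 5.90 and 6.13 with LA+NTP. The PA and LA libraries lay below all others. Its log2 fold change was -0.53 ± 0.08 (SE, adjusted p = 1.12e-04, edgeR) with PA and -0.40 ± 0.08 (SE, adjusted p = 8.50e-04, edgeR) with LA, neither past the fold threshold, where the 1097 other genes from 42% to 44% GC had medians of 0.31 and 0.32. After the removal the values were -0.75 (adjusted p = 1.87e-05, edgeR) and -0.66 (adjusted p = 1.35e-04, edgeR). Zfp316 (GRCm38 chr5:143249695-143270031), with 58.6% GC, measured 1.82 and 2 FPKM with Vehicle, 2.65 and 2.79 with PA, 2.30 and 2.28 with PA+NTP, 2.83 and 2.36 with LA and 2.13 and 2.18 with LA+NTP. Libraries with PA or LA alone lay above all others, although its mean over the libraries was near the lower limit. This was a log2 change of 0.54 ± 0.11 (SE, adjusted p = 9.59e-04, edgeR) with PA and 0.49 ± 0.11 (SE, adjusted p = 0.00215, edgeR) with LA, also short of the fold threshold. After the removal it was 0.95 (adjusted p = 3.00e-05, edgeR) and 0.93 (adjusted p = 1.09e-04, edgeR).

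Of the 10 most abundant members, with transcript GC contents from 42.3% to 59.4%, 1 was called with PA and LA, Zfp598, described below. For comparison, 6.00% of all tested genes were raised and 8.92% lowered with PA, and 3.53% and 7.11% with LA. Zfp207, which binds spindle microtubules and the checkpoint protein Bub3, was the highest at a mean of 73.5 FPKM. It measured 65.1 and 66.4 FPKM with Vehicle, 77.1 and 81.6 with PA, 78.7 and 80.9 with PA+NTP, 73.5 and 76.3 with LA and 63.7 and 71.9 with LA+NTP. The PA and LA libraries lay above those of Vehicle. Its log2 fold change was 0.31 ± 0.07 (SE, adjusted p = 0.00146, edgeR) with PA and 0.24 ± 0.07 (SE, adjusted p = 0.00816, edgeR) with LA, under the fold threshold in both. Zfp106, an RNA-binding protein, measured 34.5 and 36.4 FPKM with Vehicle, 36.2 and 37.1 with PA, 36.6 and 37.4 with PA+NTP, 34.5 and 36.4 with LA and 33.5 and 34.4 with LA+NTP. Both FFA groups overlapped with Vehicle. The log2 fold change was 0.08 ± 0.06 (SE, adjusted p = 0.278, edgeR) with PA and 0.04 ± 0.06 (SE, adjusted p = 0.584, edgeR) with LA. Zfp664 ranged from 25.3 to 29.9 FPKM over the 10 libraries, with -0.05 ± 0.06 (SE, adjusted p = 0.465, edgeR) and 0.06 ± 0.06 (SE, adjusted p = 0.392, edgeR).

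Among the abundant members known as KRAB proteins, Zfp809, which silences proviruses of murine leukemia viruses, measured 27.7 and 31.9 FPKM with Vehicle, 36.6 and 37 with PA, 36.1 and 32.9 with PA+NTP, 37.6 and 37.2 with LA and 30.0 and 30.1 with LA+NTP. The PA and LA libraries were the highest, with PA+NTP replicate 1 next below the PA libraries. It changed on the log2 scale by 0.33 ± 0.07 (SE, adjusted p = 0.00233, edgeR) with PA and 0.36 ± 0.07 (SE, adjusted p = 0.00138, edgeR) with LA, under the fold threshold. Zfp445, which takes part in keeping genomic imprints, measured 29.4 and 30.6 FPKM with Vehicle, 42.2 and 39.4 with PA, 36.7 and 31 with PA+NTP, 39.7 and 36.8 with LA and 30.1 and 28.1 with LA+NTP. All 4 libraries with an FFA alone were above the other 6, by a narrow margin over PA+NTP replicate 1. On a log2 scale it changed by 0.47 ± 0.08 (SE, adjusted p = 1.70e-04, edgeR) with PA and 0.40 ± 0.08 (SE, adjusted p = 7.77e-04, edgeR) with LA, and it was not called. The other 4 of the 10 most abundant, Zfp91, Zfp277, Zfp110 and Zfp281, had means from 25.3 to 29.1 FPKM and mean log2 fold changes with the 2 FFAs from 0.14 to 0.41.

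A list of 12 members, chosen by hand for ties to RNA, ribosomes or ubiquitin, was counted apart and is not a complete class. With PA 0 of the 12 rose and 2 fell, Zfp598 and Zfp36, and with LA 0 rose and 1 fell, Zfp598, by edgeR, beside 6.00% and 8.92% of all tested genes with PA and 3.53% and 7.11% with LA. At an unadjusted p under 0.05, 4 of the 12 were higher with PA and 5 with LA in edgeR, and DESeq2 and limma also called 0 raised. Zfp598, a ubiquitin ligase that acts on collided ribosomes, was the second most abundant member. It measured 44.0 and 43.8 FPKM with Vehicle, 26.5 and 27.3 with PA, 43.9 and 45.2 with PA+NTP, 26.3 and 29.2 with LA and 48.4 and 49.0 with LA+NTP. Libraries with PA or LA alone lay far below the other 6. Its log2 fold change was -0.67 ± 0.06 (SE, adjusted p = 2.43e-06, edgeR) with PA and -0.62 ± 0.06 (SE, adjusted p = 6.48e-06, edgeR) with LA, where the call was lost without LA replicate 1 (-0.54), and 0.67 ± 0.06 (SE, adjusted p = 2.32e-06, edgeR) and 0.77 ± 0.06 (SE, adjusted p = 3.62e-07, edgeR) with NTP. Its transcript GC content is 59.4%, and after the removal of the trend its value with PA was -0.22 (adjusted p = 0.0286, edgeR). Zfp622, a factor of large ribosomal subunit maturation with 51.2% GC, had 0.37 ± 0.08 (SE, adjusted p = 0.00133, edgeR) with PA and 0.46 (adjusted p = 7.58e-04, edgeR) after the removal. Zfp638, with 40.7% GC, had 0.53 ± 0.07 (SE, adjusted p = 1.98e-05, edgeR) with PA and was called only in LA+NTP against LA, at -0.63 ± 0.06 (SE, adjusted p = 2.39e-06, edgeR), a call lost without LA replicate 2 (-0.58). Zfp91, Zfp326, Zfp346, Zfp451, Zfp593 and Zfp830 were called in none of the 4 comparisons.

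Of 23 members listed as transcription or chromatin factors without a KRAB, 1 rose and 6 fell with PA and 0 rose and 4 fell with LA by edgeR, beside the same shares of all tested genes as for the list above. At an unadjusted p under 0.05, 6 were higher with LA in edgeR, and DESeq2 and limma called 0 raised. Their median log2 fold change was 0.01 with PA and -0.01 with LA. Zfp335, a subunit of a histone methyltransferase complex, measured 11.9 and 12.3 FPKM with Vehicle, 7.12 and 7.75 with PA, 13.4 and 13.2 with PA+NTP, 6.48 and 6.93 with LA and 13.7 and 13.2 with LA+NTP. The FFA libraries did not overlap with the others. On the log2 scale the change was -0.67 ± 0.07 (SE, adjusted p = 6.38e-06, edgeR) with PA, -0.81 ± 0.07 (SE, adjusted p = 2.46e-06, edgeR) with LA, 0.77 ± 0.07 (SE, adjusted p = 1.88e-06, edgeR) with PA+NTP and 0.97 ± 0.07 (SE, adjusted p = 1.69e-07, edgeR) with LA+NTP. It shares 22.8% of its 31-base stretches with other genes. Zfp703, a repressor with 63.6% GC, had -0.81 ± 0.12 (SE, adjusted p = 7.14e-05, edgeR) with PA and -0.81 ± 0.11 (SE, adjusted p = 6.92e-05, edgeR) with LA. In contrast, Zfp217, with 51.3% GC, had 0.02 ± 0.07 (SE, adjusted p = 0.86, edgeR) and 0.01 ± 0.07 (SE, adjusted p = 0.951, edgeR).

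Of 17 genes of the machinery that KRAB zinc finger proteins recruit, 1 rose and 0 fell with either FFA by edgeR. That gene was Cbx3, an HP1 protein. Over all tested genes 6.00% rose and 8.92% fell with PA, and 3.53% and 7.11% with LA. At an unadjusted p under 0.05, 2 were lower with PA and 4 with LA in edgeR, and DESeq2 and limma called 0 lowered. With NTP added, 1 fell under PA and 3 under LA by edgeR, beside 5.11% and 7.57% of all tested genes. None of the 17 was called as raised by NTP, and 5 under PA and 6 under LA were higher at an unadjusted p under 0.05. Cbx3, with 41.1% GC, had a log2 fold change of 0.69 ± 0.09 (SE, adjusted p = 3.17e-05, edgeR) with PA and 0.78 ± 0.09 (SE, adjusted p = 1.57e-05, edgeR) with LA. Trim28, with 59.6% GC, had -0.05 ± 0.06 (SE, adjusted p = 0.521, edgeR) with PA and 0.01 ± 0.06 (SE, adjusted p = 0.942, edgeR) with LA. Setdb1 had -0.12 ± 0.07 (SE, adjusted p = 0.152, edgeR) and -0.12 ± 0.07 (SE, adjusted p = 0.185, edgeR). Other zinc finger families are given for comparison. The median log2 fold change with PA was -0.02 in 35 Zbtb genes, 0.00 in 18 Zkscan and Zscan genes, -0.23 in 14 Klf genes and 0.28 in 4 Sp genes, whose median GC contents were 50.5%, 50.5%, 48.4% and 43.9%, beside 0.17 in the members.

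By position, the members of chromosomes 17 and 13 held most of the increases. On chromosome 17, 15 of 33 members rose and 3 fell with PA, and 10 rose and 3 fell with LA, at a median log2 fold change of 0.56 and 0.47. Over all tested genes 6.00% rose and 8.92% fell with PA, and of the other genes from 38% to 40% GC 24.6% rose with PA and 21.4% with LA. On chromosome 13, 9 of 18 rose with PA and 2 with LA, at medians of 0.53 and 0.49. On chromosome 7, 0 of 49 rose and 9 fell with PA by edgeR, and 2 rose and 9 fell with LA, at medians of -0.05 and -0.10, with 9 raised at an unadjusted p under 0.05 with PA and 0 called as raised by DESeq2. Median transcript GC content was 38.7% on chromosome 17, 39.4% on chromosome 13 and 49.0% on chromosome 7. Duplicated sequence was common, and 69 members share at least 10% of their 31-base stretches with other genes. Among the KRAB members, 20 of the 47 that do so rose with PA at a median GC of 39.3%, and 12 of the 72 that share less rose at a median GC of 42.5%.

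Near the lower limit, Zfp759, Zfp606 and Zfp799 were included at mean levels of 2.04, 2.05 and 2.09 FPKM, and Zfp213, Zfp873 and Zfp3 were left out at 1.98, 2 and 2, the last 2 values lying below the limit before rounding. All 225 members passed the filter on low counts, and 19 of them had a mean under 2 FPKM in at least 1 group. In the 206 members with a mean of at least 2 in every group, 32 rose and 19 fell with PA, and 20 rose and 17 fell with LA. Over all tested genes 6.00% rose and 8.92% fell with PA, and 3.53% and 7.11% with LA.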

How the data were processed

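RNA sequencing of 10 libraries of primary mouse hepatocytes was analyzed from the values the authors deposited for each library, expected counts and FPKM per gene. HISAT, Bowtie2, RSEM and mm10 are named in the submitters' processing notes. RSEM divides reads that match several genes between them, which bears on Zfp genes with shared sequence. A gene not listed in a library was set to 0. The deposited expected counts were rounded to whole numbers and fitted with edgeR 4.0.16 (R 4.3.3) over all 5 groups, after TMM scaling (factors from 0.977 to 1.037) and its filter on low counts, which kept 14097 of 18055 genes. Calls required 1.5-fold or more, with p below 0.05 after adjustment. Labels do not say that the 2 libraries of a group came from separate animals or cultures, so that p-values may measure technical spread only. With 2 against 2 libraries, a permutation test of 1 gene cannot go below 0.333 (two-sided).

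Transcript GC content, coding sequences, the KRAB pattern, fingers and shared 31-base stretches were taken from GENCODE M21 transcripts on GRCm38. Coding sequences were translated from that annotation, in place of a table of RefSeq proteins, which was not used here. Gene positions are those of RefSeq GRCm38.p6. The GC trend was removed with a loess fit (span 0.4) in each library. The genes named are the 10 most abundant and the 10 with the largest mean change in each direction among those called with an FFA. Also named are those called in all 4 main comparisons or in another comparison, and the hand-picked list for RNA, ribosomes and ubiquitin. To these were added 3 genes on either side of the limit of 2 FPKM and up to 4 from each further list. The members, lists and rules were chosen with earlier results of these data known. Alternatives used DESeq2 1.42.0, limma 3.58.1 on log2(FPKM + 1) and log2(FPKM + 0.1), a rule after NOISeq at a probability of 0.95, other scalings, filters and membership limits, and each library left out. The model was tested on simulated counts with 200 genes changed in PA against Vehicle. With no trend it recovered 144 of them and made 3 false calls. A GC trend planted and left in place gave 142 recovered and 127 false calls. With that trend removed, 139 were recovered with 4 false calls. The planted trend was a straight line of a set size in the PA and LA libraries, not fitted to these data. These counts therefore do not measure the false calls that the trend of the data could give. The calls reported here come from the fit without removal of the trend unless stated.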

Additional observations from a re-analysis of the deposited data

How the results depend on the processing

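The number of called members is given for PA against Vehicle, LA against Vehicle, PA+NTP against PA and LA+NTP against LA in that order, with 59, 40, 50 and 71 calls as reported. No fold threshold gave 138, 136, 130 and 159, and then also 8 in PA+NTP against Vehicle and 11 in LA against PA. Removal of the GC trend gave 9, 4, 11 and 6, and the same numbers together with the replicate block. Limma on log2(FPKM + 1) gave 30, 21, 29 and 46. The NOISeq rule gave 0, 0, 0 and 0, with 0 in LA against PA. It called few of the 14097 tested genes, 22 raised and 28 lowered with PA, and 18 and 38 with LA. With NTP it called 28 raised and 14 lowered under PA, and 111 and 29 under LA. The paper reports far more genes changed by PA and by LA with its NOISeq criteria, so the rule as built here did not reproduce them. Because the rule also compares FPKM differences with those between replicates of all genes, a gene of low FPKM can fail it despite a large fold change. A limit of 5 FPKM left 37, 25, 29 and 41, and members with under 10% shared sequence 31, 21, 26 and 41, with 0 in LA against PA. The balance of directions moved in these 156 members with little shared sequence. With PA 14 of them rose and 17 fell, against 36 and 23 among all members. With LA 7 rose and 14 fell, against 20 and 20. NTP gave 16 raised and 10 lowered under PA, and 21 and 20 under LA, against 24 and 26, and 29 and 42. Taking all tested Zfp genes gave 1 call in PA+NTP against Vehicle and 3 in LA against PA, a limit of 1 FPKM gave 2 in LA against PA, and no filter gave 1 in the difference between the NTP effects. With 1 library left out the counts ran from 50 to 65, 38 to 46, 48 to 56 and 71 to 78, and from 0 to 1 in PA+NTP against Vehicle, 1 to 3 in LA against PA and 0 to 1 in the difference between the NTP effects. The median difference between members and genes of like GC content with PA was -0.02 against other genes at 2 FPKM or more, and 0.02 as reported. Beyond the construction of each alternative, the cause was not tested. Of 124 calls of named members, 16 were kept with the GC trend removed, 92 with limma on log2(FPKM + 1), 0 with the NOISeq rule and 123 with DESeq2, and 0 were reversed in 2852 comparisons. Replicate numbers were those of the labels, which differ from the numbers in the names of the deposited files in each group, and the pairing check, the block and the names of left-out libraries follow the labels. Samples with the same number correlated at -0.085 to 0.129, which gave no ground to pair them, and the replicate block changed 0 of the 124 calls. Libraries from 13142588 to 60046937 counts and 2 per group limit the smaller changes that could be called.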
